A study of Homo sapiens with 5 samples.

Results

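The cytosolic ribosomal protein genes were examined in CUT&RUN peak lists from OVCAR8, an established human ovarian carcinoma cell line in which MYC and HSF1 are both amplified. A gene was a member if it is protein-coding in GENCODE 44 and its symbol is RPL or RPS followed by a digit, RPLP followed by a digit, or RPSA, leaving out the S6 kinases. The rule found 91 of 20033 protein-coding genes, of which 46 encode core proteins of the large subunit, 31 encode core proteins of the small subunit, 10 are paralogs and 4 are other symbols that match. Those 4 are the readthrough genes RPS10-NUDT3, RPL17-C18orf32 and RPL36A-HNRNPH2, which share a promoter with a core gene, and RPS19BP1, which encodes a binding partner of RPS19. CUT&RUN uses an antibody to tether a nuclease to a DNA-bound protein, and the fragments it cuts loose are sequenced. There were 2 HSF1 and 2 MYC libraries, each from untreated proliferating cells of the same line, with 500000 cells a reaction fixed in 1% formaldehyde for 1 minute. A single IgG library, which has no peak list, was the background for all 4 lists, so none of the lists has a background of its own. The labels do not state whether the 2 replicates of a factor came from separate cultures, and their spread may be technical.

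The ribosome has a small subunit, which decodes the mRNA, and a large subunit, which joins amino acids. Each core protein is needed in roughly equal number with its partners, and most ribosomal protein mRNAs begin with a run of pyrimidines, the 5′ terminal oligopyrimidine tract, which places their translation under mTOR control. MYC binds E-boxes as a heterodimer with MAX and is a known driver of ribosome production. HSF1 is the transcription factor of the heat shock response and binds heat shock elements, which are alternating GAA and TTC units with 2 bases between them.

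The start-site sequences are shown first because the pyrimidine tract was the searched feature with the widest gap between these genes and all others. Each line runs from 10 bases before to 15 bases from the canonical start site on, in GRCh38 coordinates, and the pyrimidine run that begins at the start site is in capitals.
RPLP2 (chr11:809957-809981, plus strand): tcggcgccttCCTTTTCCTCCCTgt
RPL5 (chr1:92832030-92832054, plus strand): gggctgtggcCCTTTTCCCaccccc
RPS14 (chr5:150449725-150449749, minus strand): ccctcccactCTCTCTTTCCggtgt
RPL39 (chrX:119791616-119791640, minus strand): ccgccagcttCCCTCCTCTTCCTTT
RPL18 (chr19:48619164-48619188, minus strand): agcccgttctCTCTTTCCggacctg
RPL24 (chr3:101686704-101686728, minus strand): atgattctctCTTTCTTTTCgccat
RPL32 (chr3:12841551-12841575, minus strand): acgacccatcagcccttgcgcgcca
RPS4X (chrX:72277234-72277258, minus strand): ctccagccccaatttctacgcgcac
A C at the start site followed by at least 4 pyrimidines was present in 58 of 77 core genes (75.3%), against 4.59% of all 20033 protein-coding genes and 5.70% of the 8024 with a MYC peak in both lists. It was present in 34 of 46 large and 24 of 31 small subunit genes, and in 2 of 10 paralogs. RPL39 had the longest run of those printed, with 19 pyrimidines, of which 15 fit on the line. RPL32 and RPS4X have no run at the annotated start. A base or a few of difference in the annotated start decides this match, and a run of 8 pyrimidines within 15 bp of the start was found in 65 of the 77 core genes (84.4%) against 13.2% of all.

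Upstream sequence is shown for the core genes at the extremes of MYC signal. RPLP2 and RPL32 were among those with the highest MYC pileup, and RPL24 and RPS4X had no MYC peak in either list. The lines give the 150 bases before the canonical start, and the ETS-type letters CCGGAAG, searched on both strands, are in capitals.
RPLP2 (chr11:809817-809966, plus strand): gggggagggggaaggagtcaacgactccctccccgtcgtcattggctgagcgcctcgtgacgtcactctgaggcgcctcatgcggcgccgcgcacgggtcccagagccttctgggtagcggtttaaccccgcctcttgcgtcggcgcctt
RPL32 (chr3:12841566-12841715, minus strand): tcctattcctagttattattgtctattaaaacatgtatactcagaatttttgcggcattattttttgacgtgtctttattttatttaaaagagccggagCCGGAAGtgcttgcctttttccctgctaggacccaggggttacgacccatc
RPL24 (chr3:101686719-101686868, minus strand): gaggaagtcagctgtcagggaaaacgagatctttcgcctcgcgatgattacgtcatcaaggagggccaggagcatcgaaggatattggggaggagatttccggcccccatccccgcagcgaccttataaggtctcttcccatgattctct
RPS4X (chrX:72277249-72277398, minus strand): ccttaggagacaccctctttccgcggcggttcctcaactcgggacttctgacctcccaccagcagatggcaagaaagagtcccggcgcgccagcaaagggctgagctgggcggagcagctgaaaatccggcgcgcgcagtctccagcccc
RPL32 holds these letters 51 bp before its start. RPLP2 and RPS4X hold them outside the printed stretch, 208 bp before and 14 bp after the start, and RPL24 has none in the window searched. In that window, from 250 bp before to 50 bp after the canonical start, CCGGAAG was found in 27 of 77 core promoters (35.1%), against 14.1% of all protein-coding promoters and 19.5% of those with a MYC peak in both lists. It was present in 18 of 46 large and 9 of 31 small subunit genes. The YY1-type letters AAGATGGC were found in 10 core promoters (13.0%) against 4.04% of all. The SP1-type letters GGGCGG were in 46 core promoters (59.7%) against 61.3% of all, and TATAAA in 6 (7.79%) against 9.71%. All these letters were searched on both strands, and overlaps between motifs were not removed.

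The E-box CACGTG, the MYC-MAX site, was in 5 of 77 core promoters (6.49%). With so few genes this share is near the 8.76% of all promoters. Among all promoters with a MYC peak in both lists it was 12.5%. The 5 are printed with 10 bases on each side and the E-box in capitals.
RPL13A (chr19:49487377-49487402, plus strand): ctccgcgcccCACGTGatctctcgcc
RPL19 (chr17:39200042-39200067, plus strand): tacagataacCACGTGattgggaacc
RPL23 (chr17:38853782-38853807, minus strand): ttgctccggcCACGTGaggagggtgg
RPS2 (chr16:1964794-1964819, minus strand): tccgacaaaaCACGTGagtcctgttg
RPS28 (chr19:8321480-8321505, plus strand): ctccccgaagCACGTGactcctctcc
All 5 of these genes had a MYC peak in both lists, with a median pileup of 30 and 35, against 38 and 42 for the core genes without an E-box in this window. The E-box of RPS28 fills the 6 bases just before its start site. These letters are a description of the sequence, and no binding to them was measured.

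**Figure D1:**
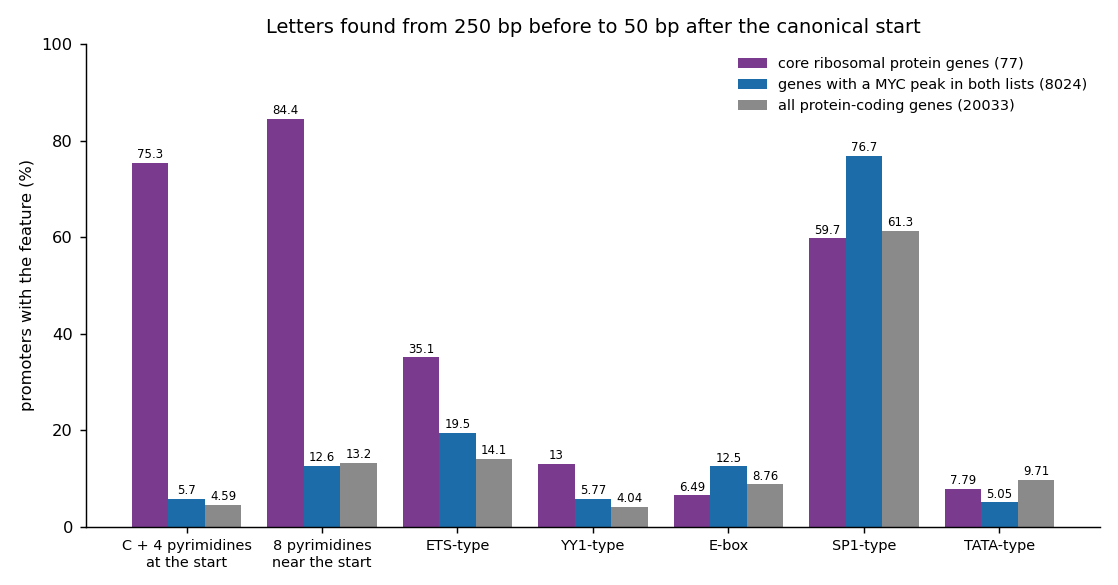
Share of promoters (%) that hold each feature from 250 bp before to 50 bp after the canonical start, for the 77 core ribosomal protein genes, the 8024 genes with a MYC peak in both lists and all 20033 protein-coding genes. The pyrimidine features separate the core genes (75.3% and 84.4%) from all genes (4.59% and 13.2%), while the E-box is in 6.49% against 8.76%.

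The depth behind each list was 8265647 to 10084407 fragments that passed the duplicate filter, with 9306942 for IgG. HSF1 lists held 6421 and 4459 peaks, called with a cutoff of 1e-04 on the peak p-value. MYC lists held 25623 and 13278 peaks, called with the stricter cutoff of 1e-10. Pileup is the number of fragments over the summit, and it was a whole number in every peak. It was not corrected for copy number, which the lists do not give, and RPL7, RPL8, RPL30 and RPS20 lie on chromosome 8 with MYC and HSF1. A gene was called bound if any base of a peak lay within 1 kb of an annotated start site, and its strongest peak stands for it.

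MYC peaks covered nearly the whole group. In MYC replicate 1, 82 of 91 members had a peak (90.1%), against 55.3% of all protein-coding genes. In MYC replicate 2 it was 81 of 91 (89.0%), against 41.2% of all. In both MYC lists together 79 members had a peak (86.8%), against 40.1% of all. Genes are not replicates, so these shares are descriptions of each list and were not tested over genes. At a −log10 p of at least 50, far above the calling threshold, 26 members (28.6%) remained in replicate 1 against 15.7% of all genes, and 24 (26.4%) in replicate 2 against 6.83% of all.

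HSF1 peaks were few. HSF1 replicate 1 had a peak at 4 of 91 members (4.4%), against 8.58% of all protein-coding genes, and HSF1 replicate 2 at 6 of 91 (6.59%), against 6.85%. Both HSF1 lists held a peak at 3 members (3.3%), against 3.49% of all, so the HSF1 shares lay near or below that of any gene. The number of members with a peak was 81.5 ± 0.707 (SD, n = 2 lists) for MYC and 5 ± 1.41 (SD, n = 2 lists) for HSF1, a difference of 76.5 members. The member counts of the MYC and HSF1 lists did not overlap. Nor did the counts over all protein-coding genes, 11080 and 8245 in the MYC lists and 1718 and 1372 in the HSF1 lists. For the member counts, an exact two-sided permutation test over the 4 lists gives p = 0.333, which is the smallest it can give. The MYC lists were called at the stricter threshold and still held more genes, so the direction of the difference is not particular to the members.

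**Figure D2:**
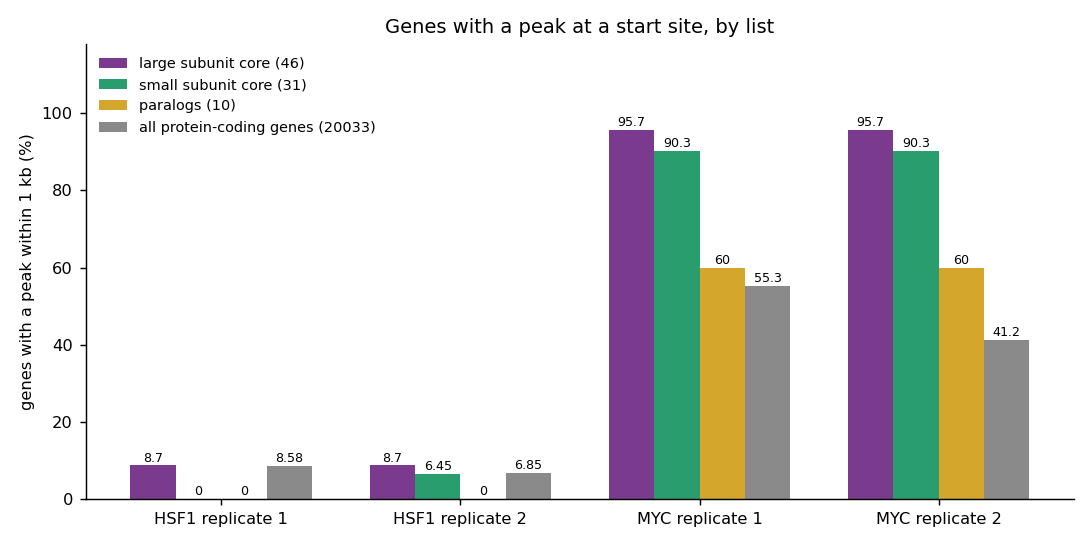
Share of genes (%) with a peak within 1 kb of a start site in each of the 4 lists, for large subunit core genes, small subunit core genes, paralogs and all protein-coding genes. Both core groups stand at 90.3% to 95.7% in the MYC lists, above the 55.3% and 41.2% of all genes, and the HSF1 bars reach at most 8.70% against 8.58% and 6.85%.

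The subunits differed little. MYC peaks were found at 44 of 46 large subunit genes (95.7%) and 28 of 31 small subunit genes (90.3%), with the same counts in each MYC list, a difference of 5.33 percentage points. The median pileup was 37 for large and 36.5 for small subunit genes in MYC replicate 1, and 43.5 and 38.5 in MYC replicate 2. Ranges overlapped almost fully, from 14 to 99 and from 16 to 82 in replicate 1 and from 19 to 101 and from 19 to 87 in replicate 2. HSF1 peaks were at 4 large subunit genes in each list (8.70%), and at 0 and 2 small subunit genes (0% and 6.45%). The shares of all protein-coding genes were 8.58% and 6.85%, so with so few peaks these counts do not tell the subunits apart.

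The highest MYC pileups belonged to proteins of different parts of the ribosome. RPLP2, an acidic protein of the stalk that recruits elongation factors, had a pileup of 99 in MYC replicate 1 and 93 in replicate 2, with fold enrichments over IgG of 24.3 and 19.6. RPL7, on chromosome 8, had 94 and 85. At each of these genes another coding gene starts within 1 kb upstream on the opposite strand, PIDD1 at RPLP2 and RDH10 at RPL7. The summits lay upstream of the canonical start, at -276 and -270 bp for RPLP2 and at -408 and -439 bp for RPL7. The part of each neighbour in these pileups was not tested. Among protein-coding genes with a peak in the same list, RPLP2 stood at percentiles 98.1 and 98.6 and RPL7 at 97.3 and 97.8, so both replicates placed them near the top.

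RPL5, which with RPL11 escorts a ribosomal RNA and can bind MDM2, had pileups of 73 and 97. RPL32 had 68 and 101, the highest member value of replicate 2, with fold enrichments of 31.4 and 38.9. In these 2 genes replicate 2 was the higher list. RPS14, the small subunit protein lost with a deleted chromosome arm in a form of myelodysplastic syndrome, had 82 and 87. RPL7L1, a paralog of RPL7 that acts in ribosome assembly, had 55 and 89.

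RPL36 was also among the 8 members of highest mean pileup, with 66 and 77, but that peak is not at its canonical start. Its summits lie at -9435 and -9487 bp from the canonical start, which is upstream, at an alternative start that shares the interval with HSD11B1L and MICOS13. At the canonical start, RPL36 had a pileup of 43 and 38. Only RPL22, RPL27A, RPL6 and RPS29 among the other members changed pileup in a list when the canonical start alone was used.

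At the other end, 3 core genes had no MYC peak in either list. RPL24 encodes a large subunit protein that joins late in assembly, and its nearest MYC peaks lay 9271 and 112569 bp from a start site. RPS4X, the X-linked member of a gene family with Y copies, had its nearest MYC peaks at 33598 and 780117 bp. RPS20, on chromosome 8, had its nearest at 193470 and 193531 bp. A missing peak means that none was called at this depth and threshold. The 3 genes were without an HSF1 peak too.

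A few members were called in a single MYC list. RPL28, with a pileup of 26, RPS27, with 22, and RPS19BP1, with 43, had a peak only in replicate 1, and RPL38, with 23, and RPS21, with 35, only in replicate 2. RPS27 and RPL38 thus lay low in the list where they were found, at percentiles 25.4 and 31.7. The lowest pileups among genes called in both lists were those of RPL17, 14 and 25, and RPS15, 16 and 19.

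**Figure D3:**
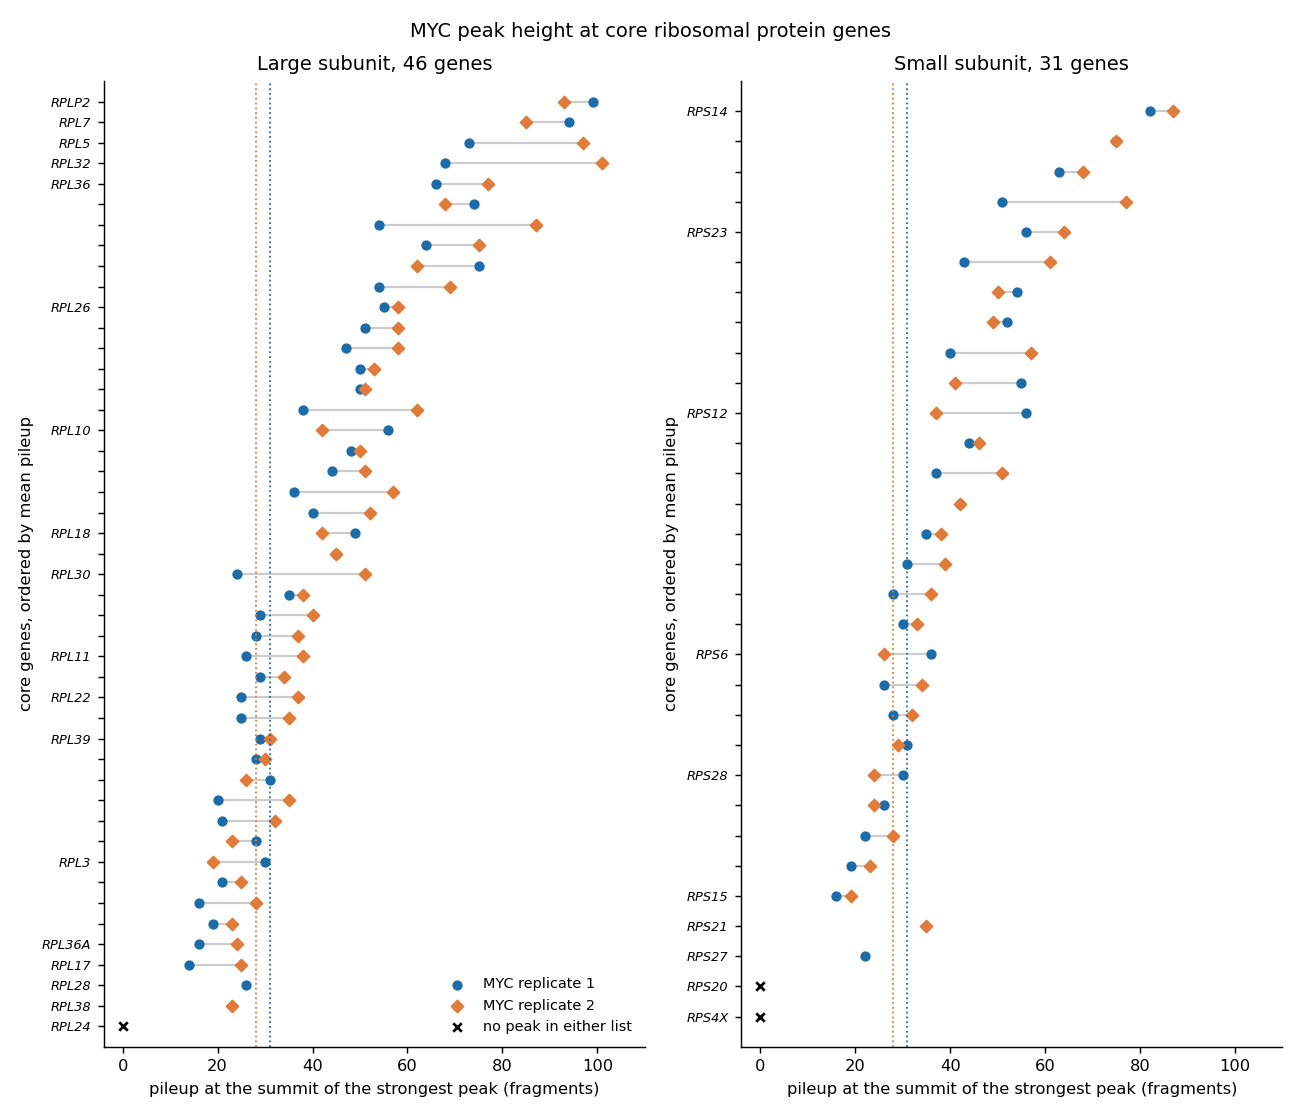
Pileup (fragments) of the strongest MYC peak of each core gene in MYC replicate 1 (circles) and replicate 2 (diamonds), with large subunit genes on the left and small subunit genes on the right, ordered by mean and with names for some of the genes described. Dotted lines mark the median of all protein-coding genes with a peak, 31 and 28, and the values run from 14 for RPL17 to 101 for RPL32.

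Paralogs were split between those with peaks and those without. Peaks in both MYC lists were present at 6 of 10 (60%), beside 40.1% of all protein-coding genes, and the other 4 had none in either list. In replicate 1 alone the same 6 stood beside 55.3% of all genes. RPL22L1, a paralog of RPL22, had pileups of 36 and 32 beside 25 and 37 for RPL22, whose peak was at an alternative start. At the canonical start RPL22 had 22 and 20, below RPL22L1 in both lists. RPL26L1 had 41 and 39 beside 55 and 58 for RPL26, and RPL39L had 42 and 27 beside 29 and 31 for RPL39, a protein that lines the peptide exit tunnel. RPL36AL had 31 and 33 beside 16 and 24 for RPL36A, and RPS27L, a p53 target, had 18 and 27, while RPS27 was called in 1 list. The paralogs without a peak were RPL3L, known from striated muscle, RPL10L, known from testis, and the pair of Y-linked RPS4 genes. Neither MYC list held a peak on the Y chromosome, which an ovarian carcinoma line is not expected to carry. The Y-linked pair stays in the counts of 10 paralogs and 91 members. The core genes RPL3, with 30 and 19, and RPL10, with 56 and 42, were called in both lists. RPL3L had a MYC peak 1683 and 1677 bp from its start site, outside the window.

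Of the ribosomal proteins with symbols outside the rule, RACK1 and FAU had MYC peaks in both lists. RACK1, a scaffold on the small subunit, had pileups of 91 and 102, above every member in replicate 2. FAU, which encodes a small subunit protein fused to a ubiquitin-like one, had 21 and 24. Neither had an HSF1 peak.

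Of 8 chaperones and binding partners of ribosomal proteins, 7 had a MYC peak in replicate 1, 6 in replicate 2 and 5 in both. The shares of all protein-coding genes were 55.3%, 41.2% and 40.1%. BCCIP, the chaperone of RPL23, had the highest pileups of the 8, 61 and 43. GRWD1, the chaperone of RPL3, had 34 and 32, and HEATR3, which imports RPL5 and RPL11, had 44 and 31. LTV1, which binds RPS3, had 23 and 26. AAMP had 39 and 16. TSR2, the RPS26 chaperone, and PDCD2L had 20 in replicate 1 alone, and PDCD2, which binds RPS2, had 17 in replicate 2 alone. None of the 8 had an HSF1 peak, where 8.58% and 6.85% of all genes had one, so a count of 0 among so few genes is near that background.

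Diamond-Blackfan anaemia is an inherited red cell failure caused by loss of 1 copy of a ribosomal protein gene. All 19 members on the list of its genes had a MYC peak in replicate 1 (100%) and 18 in replicate 2 (94.7%). Of the other 58 core genes, 53 (91.4%) and 54 (93.1%) had one, so the shares were close. Among all protein-coding genes they were 55.3% and 41.2%. The median pileups of the listed genes were 38 and 46, beside 36 and 40.5 for the other core genes. RPL11 had 26 and 38, well below its partner RPL5. Core genes that host a snoRNA, a guide of ribosomal RNA modification, had medians of 37 and 42 (28 genes), beside 36 and 40 for the 49 others. Neither grouping separated the pileups.

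The members had higher pileup percentiles in MYC replicate 2 than in replicate 1, among 8245 and 11080 genes with a peak, so the reference genes differ between the lists. The median percentile of a member's pileup among protein-coding genes with a peak was 59.3 in replicate 1 and 72.5 in replicate 2. In replicate 1, 45 of 82 members (54.9%) lay above the median of all genes, and in replicate 2, 62 of 81 (76.5%). Their median pileup was 36 and then 39, while that of all genes with a peak was 31 and then 28. Fold enrichment over IgG differed between the lists. The member median was 13.8 in replicate 1, slightly below the 14.5 of all genes with a peak. In replicate 2 it was 14.5, above the 11.6 of all genes.

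For the 79 members with a peak in both lists, the log2 ratio of replicate 2 to replicate 1 pileup had a median of 0.21, against -0.29 for all 8024 genes with a peak in both. Pileup was higher in replicate 2 for 56 of the 79 members (70.9%) and for 24.98% of all genes. The medians were 0.23 for large and 0.12 for small subunit genes. Scaling each list by its fragments moves every gene alike, to -0.07 for members and -0.58 for all genes, and leaves the gap between them. On that scale 32 of 79 members (40.5%) and 10.1% of all genes were higher in replicate 2, so the majority of members turned with the scaling. RPL30, on chromosome 8, had pileups of 24 and 51, the highest log2 ratio of a core gene, while RPL3 with 30 and 19 and RPS12 with 56 and 37 went the other way.

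The gap was present at every height. Among genes with a peak in both lists, ordered by the mean of their pileup percentiles, the depth-scaled log2 ratio of members had a median of 0.30, -0.04, -0.08 and -0.20 over the percentile ranges 0 to 25, 25 to 50, 50 to 75 and 75 to 100, where all genes had -0.43, -0.61, -0.62 and -0.58. These ranges hold 7, 13, 24 and 35 members. Peak width moved too: the median log2 width ratio was 0.22 for members and -0.30 for all genes. With 1 list on each side, a difference between replicates has no test, and which of the 2 lists is closer to the cells cannot be told apart. Across the 79 members, pileups in the lists had a Pearson r of 0.84 on the log2 scale and a Spearman rho of 0.84, beside 0.75 and 0.73 over the 8024 genes, and these points share 2 libraries and 1 background.

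**Figure D4:**
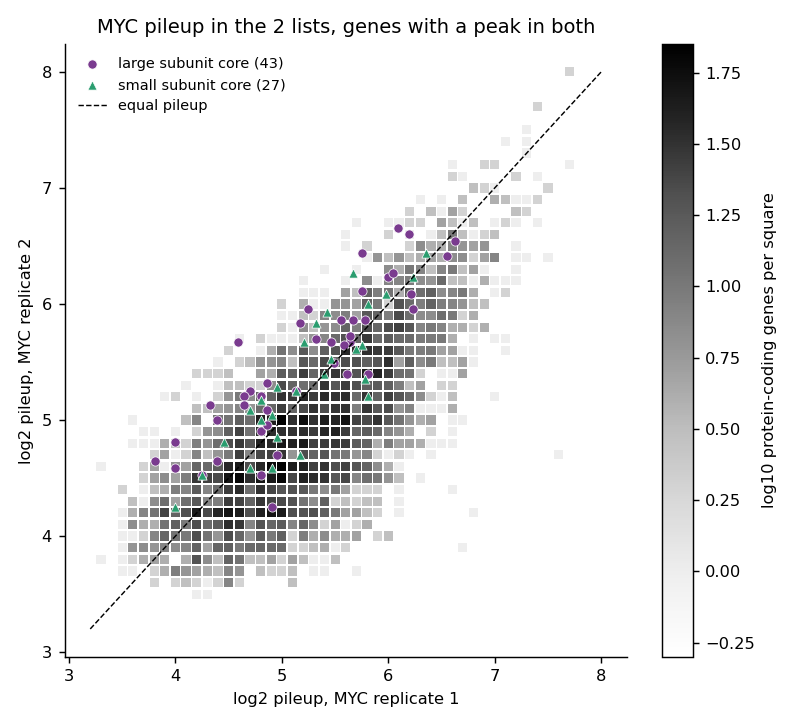
Log2 pileup of the strongest MYC peak in replicate 1 (x axis) and replicate 2 (y axis) for genes with a peak in both, with all protein-coding genes as grey squares shaded by their number and core genes as coloured points. Most core points lie on or above the dashed line of equal pileup, 50 of 70 above it (27 of 70 after scaling to fragments), while the bulk of all genes lies below.

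Summits sat beside the start site rather than on it. The median distance of a member's strongest summit from its nearest start site was -65.5 bp (upstream) in MYC replicate 1 and 64 bp (downstream) in replicate 2. In absolute terms it was 118.5 and 108 bp, and 84.1% and 87.7% of members had their summit within 250 bp of a start, against 75.2% and 71.0% of all genes with a peak.

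The lists differed in the side. Relative to the canonical start, 44 of 72 core genes (61.1%) had their summit downstream in replicate 2, but 23 of 72 (31.9%) in replicate 1. For all genes with a peak these shares were 48.9% and 37.5%. In replicate 2, 32 of the 72 summits (44.4%) fell from 100 to 200 bp downstream, against 20.8% of all genes, and 11 (15.3%) did in replicate 1, against 10.3%. Only 1 summit of replicate 2 lay in the 100 bp just before the start, where replicate 1 had 10, and the share of all genes there was 2.92% in replicate 2 and 10.2% in replicate 1.

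Gene by gene, of the 70 core genes with a peak in both lists, 20 had the summit upstream in replicate 1 and downstream in replicate 2, and 0 the reverse. Among all 8024 genes, 15.6% moved downstream and 4.34% moved upstream. The summit was upstream in both lists for 27 core genes and downstream in both for 23. RPLP2 and RPS14 kept theirs upstream, at -276 and -270 and at -153 and -184 bp from the canonical start. RPL5 kept its summit downstream, at 115 and 160 bp, and RPL7L1 at 116 and 136 bp.

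**Figure D5:**
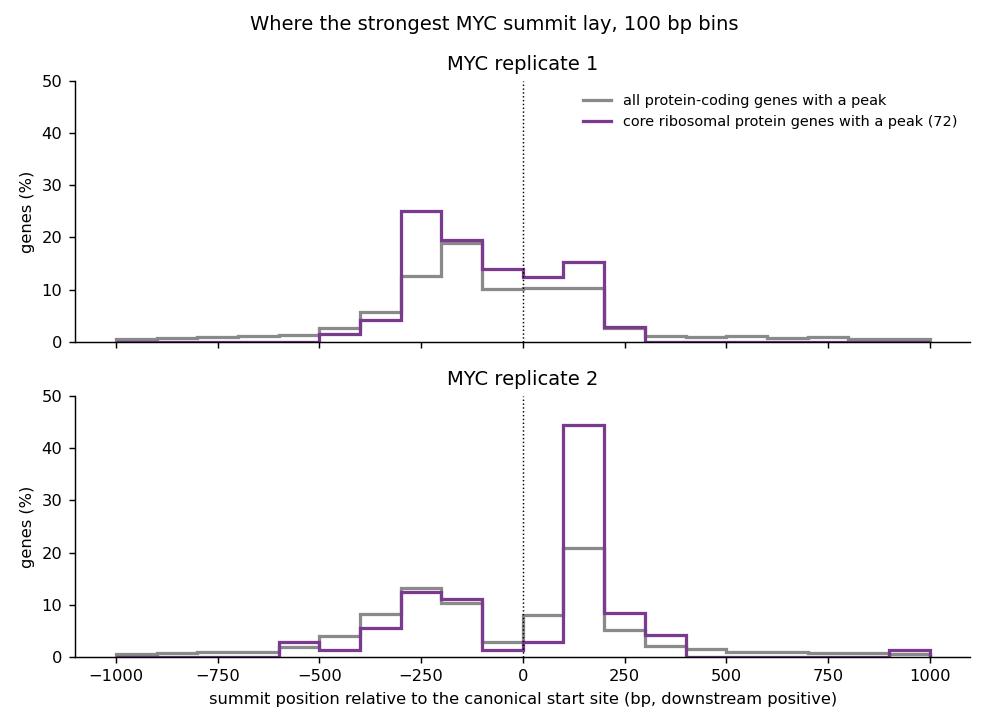
Share of genes (%) by position of the strongest MYC summit relative to the canonical start site, in 100 bp bins, for the 72 core genes with a peak and all protein-coding genes with a peak, in MYC replicate 1 (top) and replicate 2 (bottom). Core summits pile up from 100 to 200 bp downstream in replicate 2 (44.4%) and from 300 to 200 bp upstream in replicate 1 (25%).

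CACGTG was present in the strongest peak of 21 of 82 members (25.6%) in MYC replicate 1, against 25.5% of all genes with a peak, and of 28 of 81 (34.6%) in replicate 2, against 25.4%. Member peaks were wider in replicate 2, with a median of 926 bp against 567 bp for all genes. The part of peak width in the E-box share was not tested. Within 100 bp of the summit, the E-box was found for 5 members (6.10%) and 3 members (3.70%), against 7.48% and 6.53% of all genes. The related letters CACGCG were within 100 bp of the summit for 15.9% and 13.6% of members, against 13.8% and 14.4%. RPL12 alone had a CACGTG within 100 bp of its summit in both lists. None of the 8 genes with the highest pileups had one there.

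HSF1 peaks in both lists marked 3 members, all of the large subunit. They are 6.52% of its 46 core genes, beside 3.49% of all protein-coding genes, too few to tell the subunits apart. RPL39 had the highest, with a pileup of 17 in HSF1 replicate 1 and 22 in replicate 2 and fold enrichments of 8.66 and 11.9. RPL18, a Diamond-Blackfan gene, had 17 and 19, with fold enrichments of 6.87 and 8.31. RPL32 had 10 in each list, near the list medians of 11 and 10, with fold enrichments of 4.78 and 5.10. By pileup, RPL39 stood above 80.02% and 86.03% of the peaks of its list, and RPL18 above 80.02% and 82.01%.

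Another 4 members had an HSF1 peak in a single list. In replicate 2, RPL36 had 15, RPS23, a protein of the decoding centre, had 13, and RPS6, the substrate of the S6 kinases, had 6, which is higher than only 2.96% of the peaks in that list. A second RPL39 peak of replicate 2, downstream of its start, had 8. At RPL36 the HSF1 peak was again at the alternative start shared with HSD11B1L and MICOS13, and the RPL18 peak lay upstream of RPL18 just inside SPHK2, which is transcribed the other way. The strongest RPL39 summits lay upstream of its start, at -139 and -234 bp. A long noncoding RNA gene starts there within 1 kb on the opposite strand, and its part in these peaks was not tested.

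All 7 genes with an HSF1 peak also had MYC peaks in both lists. Among all protein-coding genes with an HSF1 peak, 95.3% and 85.6% had a MYC peak in the list of the same number. Of the 11 pairs of an HSF1 peak and a member, 9 had the HSF1 peak inside the member's strongest MYC peak of that number and 2 overlapped it in part. The summits of the 2 factors were 7 and 13 bp apart at RPL32, 68 and 15 bp at RPL18, and 123 and 63 bp at RPL39. They were within 100 bp for 2 of 4 and 5 of 6 members, against 51.3% and 44.6% of all genes with a peak of both factors. RPL32, with the highest MYC pileup among members in replicate 2, was thus a gene where HSF1 and MYC summits lay close in both replicates, whereas RPL39 and RPL18 had middling MYC pileups of 29 and 31, and 49 and 42. The HSF1 peaks of RPL32 were weak, with a −log10 p of 6.86 and 7.36, and neither remains at a −log10 p of at least 10.

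The sequence under the RPL39 summit of HSF1 replicate 2 is shown for 50 bases on each side, since this was the highest HSF1 peak of the group. The RPL18 line gives 30 bases, with capitals on the only match under these summits to a pair of units, TTC and GAA with 2 bases between.
RPL39 (chrX:119791814-119791914, minus strand): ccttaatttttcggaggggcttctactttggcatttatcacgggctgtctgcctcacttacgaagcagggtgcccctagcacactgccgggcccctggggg
RPL18 (chr19:48619405-48619434, minus strand): agatccctttcTTCCGGAAagctatcgaga
The full element of 3 alternating units, GAA, 2 bases, TTC, 2 bases and GAA or its reverse, was in 0 of 4 and 0 of 6 HSF1 peaks at members, against 8.61% and 11.7% of the HSF1 peaks of all protein-coding genes. It was in 0 of 91 member promoters against 0.364% of all. The pair of units was within 100 bp of the summit for RPL18 in each list, 1 of 4 and 1 of 6 members, against 20.1% and 17.6% of all genes with an HSF1 peak. In RPL18 these letters overlap the ETS-type letters CTTCCGG. With so few HSF1 peaks, a share of 0 says little about the group.

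Ribosomal protein genes have many processed pseudogenes, and how the aligner's repeated matches were handled is not given in the sources used here. Exon bases under a peak could have drawn reads from such copies, and their part in these values was not tested.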

How the data were processed

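The starting point was the peak lists of 4 OVCAR8 CUT&RUN libraries, 2 for HSF1 and 2 for MYC. After trimming, the authors mapped reads to GRCh38 with Bowtie 2 and called peaks on each library alone against the same IgG library with MACS 2.2.9.1, so replicates were not pooled. That library is numbered IgG replicate 2 in the headers, although only 1 IgG sample is labelled. The values used here, as deposited per peak, are the pileup (a signal, the fragments at the summit), the fold enrichment (a ratio over IgG) and the −log10 p-value of the local test. The headers state that the larger dataset was scaled to the smaller, but pileups were whole numbers in all 4 lists. Depth was taken from the headers, and without read counts no count test was possible.

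Lists were read in Python 3.11.15 with pandas 2.3.3, numpy 2.4.6 and matplotlib 3.10.9 on chromosomes 1 to 22, X and Y. Peaks were joined to all annotated start sites of protein-coding genes in GENCODE 44 within 1 kb, and a gene's peak of highest pileup was used. Percentiles are among protein-coding genes with a peak in the same list. Promoter windows, 250 bp before to 50 bp after the Ensembl canonical start, came from GRCh38, which is the build of the lists. The script was tested on simulated data. The only test is the exact permutation over the 4 lists. Named genes are the 8 members of highest mean MYC pileup, core members without a MYC peak, members with an HSF1 peak or a MYC peak in 1 list, paralogs, RPL5, RPL11 and the ribosomal proteins and chaperones outside the rule. Some genes that these rules select are not reported here. Other genes in the text were named after their values were seen. The members and gene lists were chosen with earlier results of these data known. Alternatives covered the start sites, the distance, the members, the threshold, the replicates and the window of the E-box.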

Additional observations from a re-analysis of the deposited data

How the results depend on the processing

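The 8 results were recomputed under the alternatives that apply to each, which gave 68 values. Of these, 62 stayed within 1.5 times, within the spread between replicates or on the same side of the test. Part of that count was fixed in advance. The MYC minus HSF1 difference counted as unchanged unless its sign turned. For medians and shares, leaving out 1 of the 2 MYC lists always stays within their spread. The count of 62 is therefore no measure of stability. At a −log10 p of at least 10 for HSF1 and 20 for MYC, the mean number of members with an HSF1 peak was 2 in place of 5, that of members with both factors in one replicate number was 2 in place of 5, and the difference between the subunits was 6.31 in place of 5.33 points. Fewer peaks enter by construction. With a peak required in both lists, 3 members had an HSF1 peak. At a −log10 p of at least 10 for all 4 lists the HSF1 mean was 2 again, and the MYC minus HSF1 difference 79.5. The E-box share was 4.90% within 100 bp of the summit in place of 30.1% of whole peaks. Leaving out each list in turn gave 81 to 82 members with a MYC peak, 4 to 6 with an HSF1 peak or both factors, a MYC minus HSF1 difference of 75.5 to 77.5, a subunit difference of 5.33, a median percentile of 59.3 to 72.5, an E-box share of 25.6 to 34.6%, and a median summit distance from -65.5 to 64 bp, so a single list decides the side of the summit. With the replicate number as a replicate block, the difference was 78 members in replicate 1 and 75 in replicate 2, mean 76.5, with an exact paired p of 0.5, the smallest that 2 pairs allow. The labels do not say that a number marks a shared culture or day. Depth and the calling threshold limit what a missing peak can show, above all for HSF1.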
